A study of Mus musculus with 12 samples.

Results

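The insulin-like growth factor (IGF) system was followed through 10 genes: the ligands Igf1 and Igf2, the receptors Igf1r, Igf2r and Insr, and the binding proteins Igfbp2, Igfbp3, Igfbp4, Igfbp5 and Igfbp6. They were taken by gene symbol, as the probe sets that the array annotation assigns to exactly 1 of these symbols, with the probe set of highest mean over the 12 arrays where a gene had several. They are 10 of the 19937 genes that had their own probe set. IGF1 and IGF2 are secreted peptides that signal through IGF1R, a receptor tyrosine kinase whose close relative INSR binds insulin. IGF2R has no kinase and carries IGF2 and mannose 6-phosphate-tagged enzymes to lysosomes, and the binding proteins hold the ligands outside the cell and change how much of them reaches a receptor. In the developing brain the system is known for its part in growth and survival of neurons and for promoting myelination.

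Gene expression had been measured in GFP+ cells sorted from mouse cortex in 4 groups of 3 arrays. The groups were interneurons at postnatal day 10 (IN P10) and at postnatal day 0 (IN P0), from the cortex of Nkx2-1Cre;RCE:LoxP mice, and pyramidal cells at postnatal day 12 (Pyr P12) and at postnatal day 0 (Pyr P0), from the somatosensory cortex of NexCre;RCE:LoxP mice. All mice carried the RCE:LoxP reporter, in which Cre switches on GFP, on a C57BL6 background, were untreated, and were males as far as the methods on in vivo experiments apply to these sorts. Nkx2-1 is a transcription factor of progenitors in the medial ganglionic eminence, so this Cre line marks what those progenitors give rise to, glia as well as neurons, and Nex (Neurod6) is a transcription factor of young excitatory neurons. The populations differed in Cre line and in the region dissected at both stages. IN P0 against Pyr P0 and IN P10 against Pyr P12 thus both held these differences as well as that of cell type. The later ages differ too, so IN P10 against Pyr P12 also held a difference of age. The 3 arrays of a group are labelled biological replicates A, B and C, without saying whether each was an animal or a pool, so the p-values measure the spread between these samples only. In RNA from sorted populations, fewer cells of a type and less RNA per cell cannot be told apart.

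Values are log2 signals after RMA, and a difference of 1 is a 2-fold change. A difference was called where its Benjamini-Hochberg adjusted p over 22961 tested probe sets was under 0.05 (limma, all 12 arrays in 1 fit) and its fold change over 2, and only called differences are described as a rise or a fall. The background level of an array, below which 95% of 1204 probe sets for olfactory or vomeronasal receptors read, lay between 7.13 and 7.45. Arrays correlated at 0.995 to 0.999 within groups and at 0.936 to 0.981 between groups. As a check of the labels, 6 of 6 measured pan-interneuron genes were called higher in interneurons at both stages, as were 6 of 9 genes of medial ganglionic eminence interneurons in IN P10 and 7 of 9 in IN P0. Of 11 pyramidal cell genes, 8 were lower in IN P10 relative to Pyr P12 and 7 in IN P0 relative to Pyr P0. None was called higher, but at an unadjusted p under 0.05 1 was higher in IN P10 and 2 in IN P0. Gad1, the gene of a glutamate decarboxylase that makes GABA, averaged 13.24 in IN P10, 12.69 in IN P0, 8.49 in Pyr P12 and 9.58 in Pyr P0, and Slc17a7, the vesicular glutamate transporter VGLUT1, 8.14, 8.02, 13.36 and 10.21 in the same order. All 8 measured genes of oligodendrocyte precursors were also called higher in IN than in Pyr at both ages, with a mean level of 9.99 to 10.65 on IN P10 arrays, 10.01 to 10.26 in IN P0, 7.77 to 7.92 in Pyr P12 and 7.74 to 7.99 in Pyr P0.

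The stretch before the transcription start is printed for 3 members on which the results turn: Igf1, which rose in interneurons, Igf1r, which fell there, and Igfbp4, which moved in opposite directions in the populations. Each is the 250 bases upstream of a RefSeq start of GRCm38.p6, read 5′ to 3′, with the GC box (GGGCGG) and the TATA box (TATAAA) of either strand in capitals.
Igf1 promoter, chr10:87860861-87861110, plus strand: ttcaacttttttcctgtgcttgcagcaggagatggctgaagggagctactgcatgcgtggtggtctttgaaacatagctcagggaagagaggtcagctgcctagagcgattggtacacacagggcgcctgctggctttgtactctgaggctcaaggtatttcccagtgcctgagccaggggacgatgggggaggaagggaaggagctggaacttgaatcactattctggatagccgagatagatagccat
Igf1r promoter, chr7:67952007-67952256, plus strand: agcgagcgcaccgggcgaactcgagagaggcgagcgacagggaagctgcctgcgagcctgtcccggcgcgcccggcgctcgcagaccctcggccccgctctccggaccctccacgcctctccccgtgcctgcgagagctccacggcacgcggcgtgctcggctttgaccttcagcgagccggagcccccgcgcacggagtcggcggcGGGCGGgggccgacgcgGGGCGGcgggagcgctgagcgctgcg
Igfbp4 promoter, chr11:99040994-99041243, plus strand: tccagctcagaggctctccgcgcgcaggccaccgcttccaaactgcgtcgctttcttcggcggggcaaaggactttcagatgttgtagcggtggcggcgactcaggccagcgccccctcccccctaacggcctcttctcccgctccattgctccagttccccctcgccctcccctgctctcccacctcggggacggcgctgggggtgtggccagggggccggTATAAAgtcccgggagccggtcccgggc
The Igf1 stretch held neither motif and had a GC content of 52.8%. That of Igf1r was 77.6% GC with 2 GC boxes, starting 43 and 26 bases before the start site, and that of Igfbp4 was 69.2% GC with a TATA box 28 bases before it. Over 32851 mouse promoters of the same length, 32.7% held a GC box and 12.4% a TATA box. Of the 10 members, 9 matched the promoter table with 13 starts, of which 5 had a GC box and 2 a TATA box. Insr was not matched. A match of letters is a description of the window and not a binding site.

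Among the ligands, Igf1 was the member that set interneurons apart. Its probe set (10365559) read 10.87, 11.09 and 11.18 on the 3 IN P10 arrays, against 9.01, 8.85 and 9.25 in IN P0. In pyramidal cells it read 7.84, 7.77 and 7.85 in Pyr P12, against 7.96, 7.96 and 7.93 in Pyr P0. No array of any group overlapped with those of another, in the order IN P10, IN P0, Pyr P0, Pyr P12 from high to low, and every array was above background, in Pyr P12 by 0.45 on average and in Pyr P0 by 0.72.

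With age, Igf1 rose 4.02-fold in interneurons (log2 difference 2.01 ± 0.09 SE, 95% interval 1.81 to 2.21, adjusted p = 1.13e-09), while the difference between Pyr P12 and Pyr P0 was -0.13 (interval -0.33 to 0.07, adjusted p = 0.247). The change with age in interneurons exceeded that in pyramidal cells by 2.14 (adjusted p = 6.47e-08). Between the populations Igf1 was 9.37-fold higher in IN P10 relative to Pyr P12 (adjusted p = 1.19e-11) and 2.12-fold higher in IN P0 relative to Pyr P0 (adjusted p = 8.57e-07). The P0 difference lies near the fold threshold, and without IN P0 replicate C it was 0.98, no longer over 2-fold. The comparisons share arrays, since each group enters 2 of them.

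Igf2, the ligand of fetal tissues, stayed at background. Its probe set (10569344) read 7.19, 7.29 and 7.07 in IN P10, 7.25, 7.45 and 7.17 in IN P0, 7.17, 7.31 and 7.02 in Pyr P12 and 7.06, 7.08 and 7.48 in Pyr P0. Only 1 array of IN P10, 2 of IN P0, none of Pyr P12 and 1 of Pyr P0 exceeded the background level, and all 4 groups overlapped. No difference passed the adjusted p, and the adjusted p ran from 0.537 for the age difference in interneurons to 0.903 between IN P10 and Pyr P12.

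**Figure D1:**
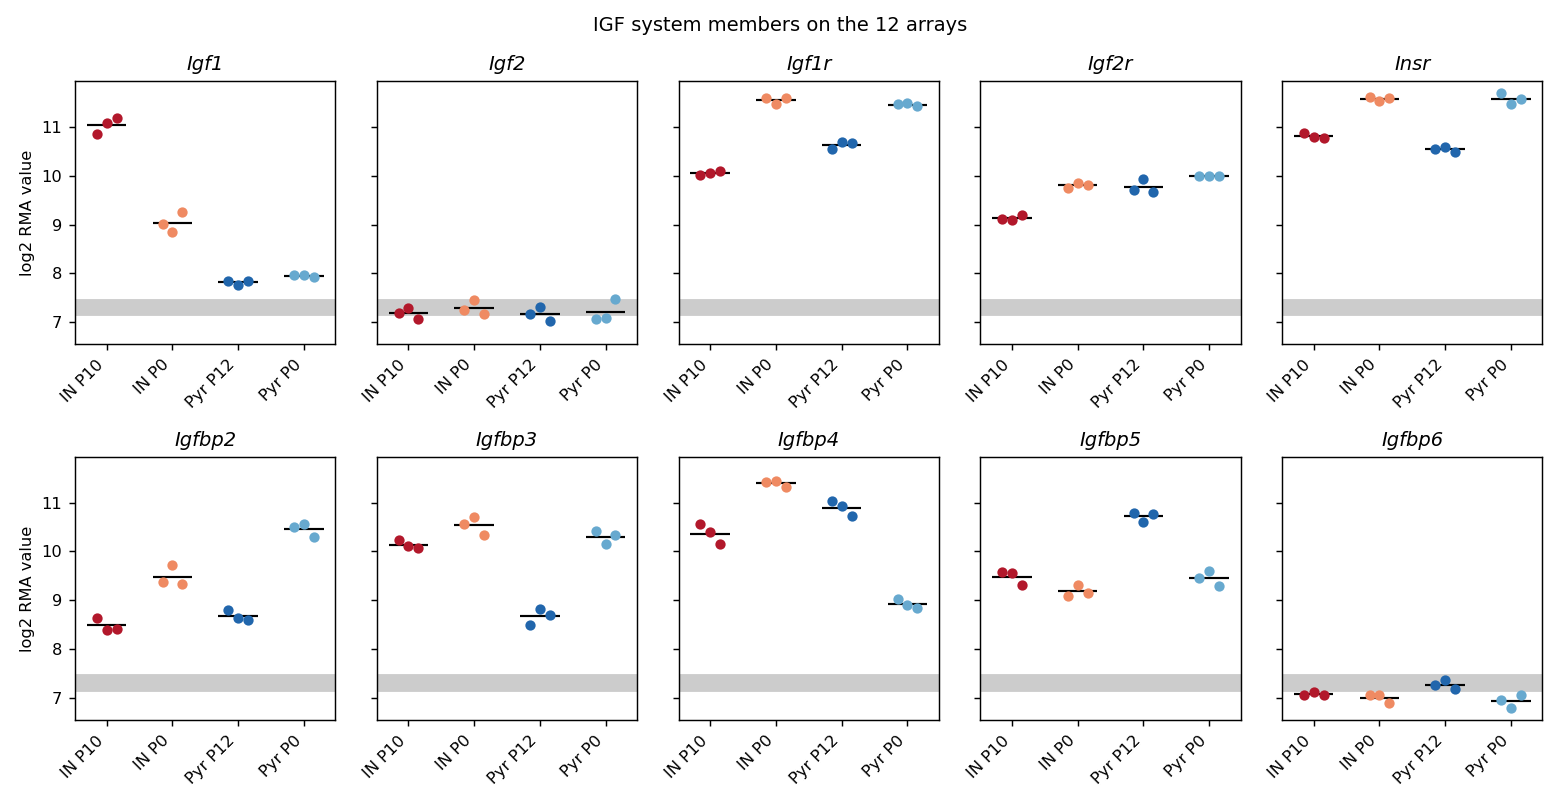
Log2 RMA value (y axis) of the 10 members on each of the 12 arrays, by group (x axis: IN P10, IN P0, Pyr P12, Pyr P0), with each point an array, the bar the group mean and the gray band the range of the background level, 7.13 to 7.45. Igf1 lies at 10.87 to 11.18 in IN P10 and below 8 in both pyramidal groups, Igfbp4 is lowest in Pyr P0, and Igf2 and Igfbp6 lie at the background band.

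The 3 receptors were all lower at the later age, in both populations, and the largest of these differences was that of Igf1r, the signalling receptor of both ligands, in interneurons. Igf1r (probe set 10554094) read 10.02, 10.06 and 10.10 in IN P10, against 11.59, 11.47 and 11.60 in IN P0. In pyramidal cells it read 10.55, 10.70 and 10.67 in Pyr P12, against 11.47, 11.49 and 11.42 in Pyr P0. The P0 groups overlapped, and both lay above Pyr P12, which lay above IN P10 on every array.

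Igf1r fell 2.82-fold with age in interneurons (log2 difference -1.49 ± 0.06 SE, adjusted p = 2.07e-10), and the decrease had a smaller size in pyramidal cells (-0.82 ± 0.06 SE, 1.77-fold, adjusted p = 3.41e-08, under the fold threshold). The test of the difference between these changes gave -0.67 (adjusted p = 2.63e-05, also under the fold threshold). Igf1r was lower in IN P10 relative to Pyr P12 by 0.58 (adjusted p = 1.95e-06, not called), and at P0 the difference was 0.09 (interval -0.03 to 0.21, adjusted p = 0.339). In interneurons, then, ligand and receptor mRNAs moved in opposite directions with age, Igf1 by 2.01 and Igf1r by -1.49.

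Igf2r, the sorting receptor (probe set 10447799), read 9.11, 9.09 and 9.19 in IN P10 and 9.74, 9.85 and 9.81 in IN P0. In pyramidal cells it read 9.71, 9.94 and 9.68 in Pyr P12 and 10.00, 10.00 and 9.99 in Pyr P0. IN P10 stood below the other groups, which ran from 9.68 to 10.00. No Igf2r difference reached 2-fold, with -0.67 for age in interneurons (adjusted p = 1.47e-06), -0.22 for age in pyramidal cells (adjusted p = 0.0118), -0.64 for IN P10 against Pyr P12 (adjusted p = 3.23e-06) and -0.20 for IN P0 against Pyr P0 (adjusted p = 0.0512).

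Insr, the insulin receptor (probe set 10576692), read 10.88, 10.79 and 10.78 in IN P10, against 11.62, 11.54 and 11.59 in IN P0. It read 10.55, 10.60 and 10.50 in Pyr P12, against 11.70, 11.47 and 11.58 in Pyr P0. The P0 groups overlapped and averaged 11.58 each, with a difference of 0.00 (interval -0.13 to 0.13, adjusted p = 0.999), and both later groups lay below them. Insr fell 2.05-fold with age in pyramidal cells (-1.04 ± 0.06 SE, adjusted p = 7.2e-09) and differed by -0.77 in interneurons (1.70-fold, adjusted p = 1.92e-07). A second Insr probe set (10576696) gave -0.75 in pyramidal cells and -0.83 in interneurons, neither over 2-fold, so the call in pyramidal cells held on 1 of the 2 probe sets. The call was also lost without Pyr P0 replicate A, at -0.98. The difference between the changes with age, 0.27 (adjusted p = 0.0302) on the first probe set, was -0.08 on the second (adjusted p = 0.487).

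The binding proteins showed the widest spread of patterns. Igfbp4, which is known mainly as an inhibitor of IGF action, moved in opposite directions in the populations. Its probe set (10381096) read 10.56, 10.39 and 10.15 in IN P10, against 11.43, 11.44 and 11.31 in IN P0, and 11.03, 10.93 and 10.73 in Pyr P12, against 9.02, 8.91 and 8.84 in Pyr P0. No groups overlapped, and their order was IN P0, Pyr P12, IN P10, Pyr P0 from high to low.

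Igfbp4 rose 3.92-fold with age in pyramidal cells (1.97 ± 0.10 SE, adjusted p = 1.64e-09) and fell 2.04-fold in interneurons (-1.03 ± 0.10 SE, adjusted p = 1.35e-06). The fall in interneurons is close to the threshold and was -0.92 without IN P10 replicate C. The difference between the changes was -3.00 (interval -3.31 to -2.69, adjusted p = 7.2e-09). At P0 Igfbp4 was 5.55-fold higher in interneurons than in pyramidal cells (adjusted p = 6.96e-10), whereas IN P10 lay 0.53 below Pyr P12 (1.44-fold, adjusted p = 0.00076, not called).

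Igfbp3 and Igfbp5 ran against each other in pyramidal cells. Igfbp3, the main carrier of IGF1 in blood (probe set 10384223), read 8.49, 8.82 and 8.69 in Pyr P12, against 10.41, 10.15 and 10.34 in Pyr P0. In interneurons it read 10.23, 10.12 and 10.08 in IN P10, against 10.57, 10.72 and 10.34 in IN P0. Pyr P12 thus stood alone below the other groups. Igfbp3 fell 3.10-fold with age in pyramidal cells (-1.63 ± 0.10 SE, adjusted p = 1.4e-08) and differed by -0.40 in interneurons (1.32-fold, adjusted p = 0.00556, not called), and the difference between these changes was 1.23 (adjusted p = 2.44e-05). It was 2.78-fold higher in IN P10 relative to Pyr P12 (adjusted p = 6.77e-08), against a P0 difference of 0.24 (adjusted p = 0.128).

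Igfbp5, a binding protein that attaches to extracellular matrix (probe set 10355500), read 10.79, 10.60 and 10.77 in Pyr P12, against 9.45, 9.60 and 9.29 in Pyr P0. It read 9.57, 9.55 and 9.32 in IN P10, against 9.09, 9.31 and 9.16 in IN P0. Here Pyr P12 stood alone above the other groups. Igfbp5 rose 2.42-fold with age in pyramidal cells (1.27 ± 0.09 SE, adjusted p = 5.73e-08), with a difference of 0.30 in interneurons (adjusted p = 0.0178, not called), and was 2.36-fold lower in IN P10 relative to Pyr P12 (adjusted p = 1.31e-07). The difference between the changes with age was -0.98 (adjusted p = 7.32e-05), just under 2-fold. Over the 12 arrays Igfbp3 and Igfbp5 correlated at -0.97, a description of 12 points that fall into 4 groups.

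Igfbp2, a binding protein of fetal and neonatal brain (probe set 10347277), read 8.81, 8.63 and 8.60 in Pyr P12, against 10.51, 10.55 and 10.30 in Pyr P0, and 8.64, 8.39 and 8.41 in IN P10, against 9.38, 9.72 and 9.33 in IN P0. The later groups overlapped, and at P0 pyramidal cells lay above interneurons on every array. Igfbp2 fell 3.42-fold with age in pyramidal cells (-1.77 ± 0.11 SE, adjusted p = 7.99e-09). In interneurons the difference was -0.99 (1.99-fold, adjusted p = 3.16e-06), and IN P0 lay 0.98 below Pyr P0 (1.97-fold, adjusted p = 9.16e-06), both just under the fold threshold. The difference between the changes with age was 0.78 (adjusted p = 0.00135, not called). By the RefSeq starts, Igfbp2 and Igfbp5 both lie on chromosome 1, on opposite strands and facing each other, and with age in pyramidal cells Igfbp2 fell while Igfbp5 rose.

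Igfbp6, which binds IGF2 in preference to IGF1, was above background on no array (probe set 10427125). Its values were 7.05, 7.12 and 7.05 in IN P10, 7.06, 7.06 and 6.88 in IN P0, 7.26, 7.37 and 7.17 in Pyr P12 and 6.96, 6.78 and 7.06 in Pyr P0. The difference between Pyr P12 and Pyr P0 of 0.33 passed the adjusted p (0.00249), but both groups were below background, so no fold is given.

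**Figure D2:**
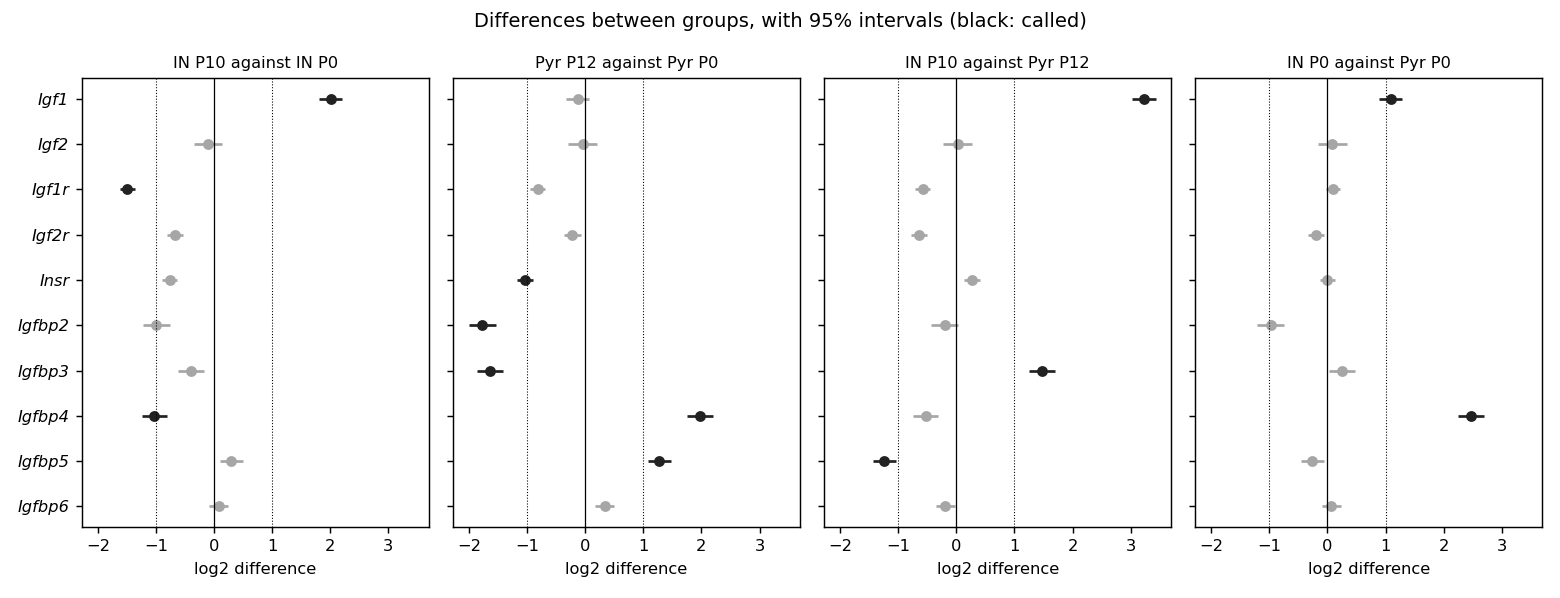
Log2 difference (x axis) of each member (rows) with age in interneurons, with age in pyramidal cells, between IN P10 and Pyr P12 and between IN P0 and Pyr P0 (panels from left to right), with 95% intervals from limma; black points are called and dotted lines mark 2-fold. Igf1 has 2.01 and Igf1r -1.49 with age in interneurons, Igfbp2 has -1.77 with age in pyramidal cells, and Igfbp4 lies at -1.03 with age in interneurons and at 1.97 with age in pyramidal cells.

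Counted over the 10 members, with age in interneurons 1 rose (Igf1) and 2 fell (Igf1r and Igfbp4), against 7.04% of all tested probe sets called in either direction, and 8 passed the adjusted p alone, against 45.5%. With age in pyramidal cells 2 rose (Igfbp4 and Igfbp5) and 3 fell (Insr, Igfbp2 and Igfbp3), against 9.16% called, and 8 passed the adjusted p, against 54.7%. Of the 10 members, 9 were above background in at least 1 group. The median difference of the 10 was -0.54 in interneurons, where that of all tested probe sets was 0.00, and -0.18 in pyramidal cells, where that of all was 0.06. Genes listed as markers of the opposite population also moved with age. Of 11 pyramidal cell genes, 4 fell in interneurons (Neurod6, Neurod2, Tbr1 and Cux2) and 2 rose (Camk2a by 2.12 and Nrgn by 2.29). The list mean was 8.94 to 9.03 in IN P10 and 9.48 to 9.90 in IN P0. Cux2 averaged 12.06 in IN P0 and 11.35 in Pyr P0, so at P0 it did not mark pyramidal cells. In pyramidal cells 5 of 6 pan-interneuron genes fell, with 7.65 to 7.84 in Pyr P12 and 8.90 to 9.45 in Pyr P0. The part of these changes in the members' differences was not tested.

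Between the populations, 2 members were higher (Igf1 and Igfbp3) and 1 lower (Igfbp5) in IN P10 relative to Pyr P12, against 5.56% of all probe sets, with 7 past the adjusted p alone, against 46.6%. At P0, 2 were higher in interneurons (Igf1 and Igfbp4) and limma and SAM called 0 lower, against 3.64% called in either direction, where 3 of the members lower in IN P0 had an unadjusted p under 0.05. Past the adjusted p alone were 3, against 22.4%. The medians of the members were -0.19 between IN P10 and Pyr P12 (all probe sets -0.07) and 0.08 at P0 (all 0.00). The change with age differed by over 2-fold between the populations for 3 members, Igf1, Igfbp3 and Igfbp4, against 4.86% of all probe sets, and past the adjusted p for 8, against 32.1%, with a median of -0.16 for the members and -0.07 for all.

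**Figure D3:**
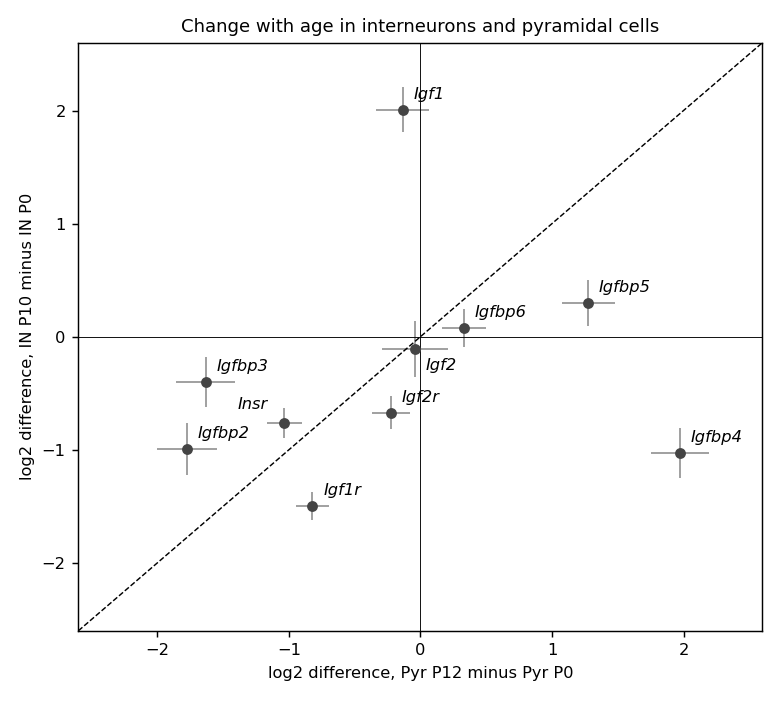
Log2 difference with age in interneurons (y axis, IN P10 minus IN P0) against that in pyramidal cells (x axis, Pyr P12 minus Pyr P0) for the 10 members, with 95% intervals from limma and a dashed line of equal change. Igf1 (2.01 against -0.13) lies far above the line, Igfbp3 (-0.40 against -1.63) above it, and Igfbp4 (-1.03 against 1.97) far below it.

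Some markers of other cells moved with Igf1, and their values stand beside it. Of 9 measured genes of myelinating oligodendrocytes, 3 rose with age in interneurons (Cnp by 1.89, Mag by 1.84 and Cldn11 by 1.33). At an unadjusted p under 0.05, 7 of the 9 were higher there and 0 lower. Of all tested probe sets, 7.04% were called there in either direction, and 45.5% passed the adjusted p alone. The share of all at an unadjusted p under 0.05 was not taken. The median difference of the myelinating oligodendrocyte list was 0.90, where that of all tested probe sets was 0.00. Its mean was 8.29 to 8.52 in IN P10, 7.46 to 7.50 in IN P0, 7.41 to 7.52 in Pyr P12 and 7.27 to 7.33 in Pyr P0. Ermn, Opalin and Aspa, genes of mature oligodendrocytes, were above background on no array of IN P10 or IN P0, and the other 6 were above it on all IN P10 arrays. Of the 8 precursor genes, Bcas1 (1.81) and Gpr17 (1.10) rose with age in interneurons, Pdgfra (2.54-fold) and Cspg4 (2.01-fold) fell, and the other 4 were not called. The median difference of the precursor list was 0.02. Within IN P10, replicates A, B and C had precursor means of 10.65, 9.99 and 10.13, where Igf1 read 10.87, 11.09 and 11.18. The part of oligodendrocyte lineage cells in the Igf1 result was not tested.

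Of the 12 microglia and macrophage genes, limma and SAM called 0 in the age comparison of interneurons, where 5 were higher and 0 lower at an unadjusted p under 0.05. Their mean level was 7.33 to 7.38 in IN P10, 7.10 to 7.15 in IN P0, 7.24 to 7.35 in Pyr P12 and 7.06 to 7.24 in Pyr P0. Of the 12, 4 were above background on all IN P10 arrays and 4 on none, and 3 on all IN P0 arrays and 8 on none. Trem2 averaged 8.78 in IN P10 and 8.80 in IN P0, and Tmem119 averaged 7.43 in IN P10 and 7.34 in IN P0. Cx3cr1 averaged 8.35 in IN P10, 0.35 above IN P0, while P2ry12 was above background on no array of either group. Lyz2 averaged 7.18 in IN P10 and 6.44 in IN P0, and C1qb 7.33 in IN P10 and 6.86 in IN P0. Both lay below background on the IN P0 arrays, and neither was called. On IN P10 replicates A, B and C, Lyz2 read 7.09, 7.21 and 7.24, and C1qb 7.49, 7.19 and 7.31. The background levels there were 7.23, 7.27 and 7.20, so neither gene was above background on all IN P10 arrays. Csf1r, above background on 3 arrays of IN P10 and none of IN P0, exceeded its IN P0 level by at least 1.31-fold in IN P10 and was not called. The part of microglia in the Igf1 result was not tested. Of the 9 measured endothelial genes limma and SAM also called 0 there, with 1 lower at an unadjusted p under 0.05, and their mean level was at most 7.07 in IN P10, 7.06 to 7.11 in IN P0, 7.07 to 7.15 in Pyr P12 and 7.03 to 7.23 in Pyr P0. Of 10 astrocyte genes, Aldoc rose with age in interneurons, by 1.29. In pyramidal cells Slc1a2, a glutamate transporter, rose by 4.17 and Aldh1l1 by 1.29. At an unadjusted p under 0.05, 5 of the 10 were higher and 2 lower in interneurons, and 6 higher and 2 lower in pyramidal cells. Slc1a3 averaged 8.33 in IN P10 against 8.85 in IN P0, and 7.97 in Pyr P12 against 8.43 in Pyr P0. Fgfr3 averaged 8.12 against 8.39 and 8.05 against 8.95 in the same order, and neither was called with age. For age, 45.5% of all tested probe sets passed the adjusted p alone in interneurons and 54.7% in pyramidal cells.

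**Figure D4:**
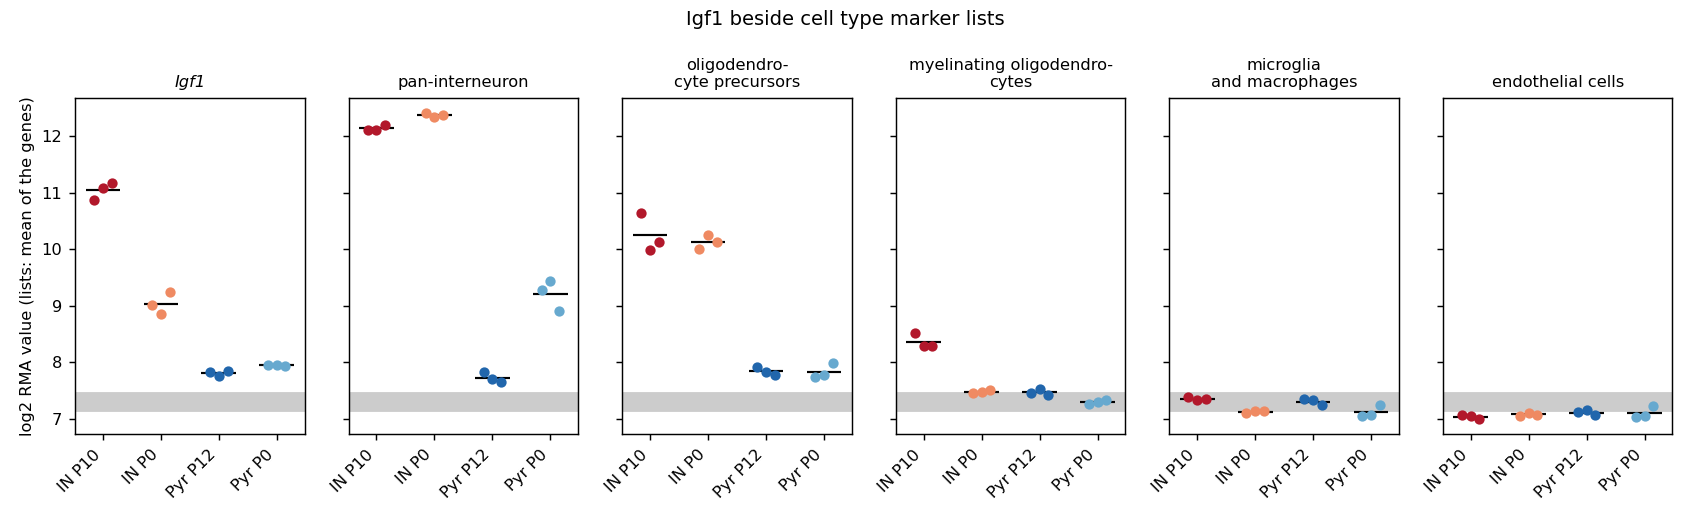
Log2 value of Igf1 and mean log2 value of the genes of 5 marker lists (y axis) on each of the 12 arrays, by group (x axis), with each point an array, the bar the group mean and the gray band the range of the background level. Igf1 and the myelinating oligodendrocyte list are highest in IN P10, the precursor list is near 10 in both interneuron groups, and the microglia and endothelial lists do not exceed 7.38 on any of the 12 arrays.

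The remaining genes of the pathway were taken from 6 lists. Of all tested probe sets, 7.04% were called with age in interneurons and 9.16% in pyramidal cells, in either direction. Between IN P10 and Pyr P12 the share was 5.56%, and at P0 3.64%. The share at an unadjusted p under 0.05 was not taken. For age it is at least that of the adjusted p alone, 45.5% in interneurons and 54.7% in pyramidal cells. Of 16 measured extracellular regulators and relatives, 0 were called higher and 1 lower with age in interneurons by limma and by SAM (4 higher and 2 lower at an unadjusted p under 0.05), and 2 rose and 2 fell in pyramidal cells, with medians of 0.04 and 0.06 beside 0.00 and 0.06 for all probe sets. Igfbpl1, an IGFBP-like protein of immature neurons, averaged 7.60 in IN P10 against 10.30 in IN P0 and 7.72 in Pyr P12 against 12.05 in Pyr P0, so that it fell in both populations, 6.50-fold and 20.0-fold. At P0 it was 3.35-fold lower in interneurons than in pyramidal cells. Stc1, a stanniocalcin, the family that inhibits the IGFBP proteases of the pappalysin type, averaged 8.03 in IN P10, 7.97 in IN P0, 9.65 in Pyr P12 and 8.32 in Pyr P0, and so rose 2.50-fold in pyramidal cells and was 3.06-fold lower in IN P10 relative to Pyr P12. Pappa2, a pappalysin that cleaves IGFBPs, fell by 1.07 in pyramidal cells and was 2.36-fold lower in IN P0 relative to Pyr P0, and Ide, insulin-degrading enzyme, rose 2.11-fold in pyramidal cells.

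Of 6 measured regulators of IGF mRNAs and loci, 1 rose and 1 fell with age in interneurons, against 7.04% of all probe sets called. In pyramidal cells 2 fell, against 9.16%. The medians were -0.50 in interneurons and -0.17 in pyramidal cells. Igf2bp3, a fetal RNA-binding protein, averaged 6.78 in IN P10 against 8.87 in IN P0 and 6.81 in Pyr P12 against 9.07 in Pyr P0, and as the later groups were not above background it was at least 3.11-fold and at least 3.26-fold lower in them. Igf2bp1, of the same family, was at least 4.05-fold lower in Pyr P12 relative to Pyr P0, against a difference of -0.76 in interneurons that was not called, and was 2.50-fold lower in IN P0 relative to Pyr P0. Plagl1, a zinc finger factor of the imprinted gene network, rose 2.55-fold in interneurons, and Lin28b, a repressor of let-7 microRNAs, was 2.08-fold higher in IN P0 relative to Pyr P0. Between IN P10 and Pyr P12, limma and SAM called 0 of the 6, with 3 higher and 1 lower at an unadjusted p under 0.05.

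Of 19 receptor adaptors, 1 fell with age in interneurons, against 7.04% of all probe sets called in either direction. In pyramidal cells 1 rose and 3 fell, against 9.16%. The medians were -0.03 in interneurons and -0.01 in pyramidal cells. Gab1, a docking protein downstream of receptor tyrosine kinases, averaged 9.40 in IN P10 against 10.69 in IN P0 and 7.76 in Pyr P12 against 10.28 in Pyr P0. It fell 2.45-fold in interneurons and 5.75-fold in pyramidal cells and was 3.12-fold higher in IN P10 relative to Pyr P12. Gab2, its relative, fell 2.44-fold in pyramidal cells, with -0.03 in interneurons, and was 2.14-fold higher in IN P10 relative to Pyr P12. Grb10, an adaptor that inhibits the insulin and IGF1 receptors, rose 2.74-fold in pyramidal cells and had a difference of 0.82 in interneurons, and Sh2b2 fell 2.29-fold in pyramidal cells. Irs1 and Irs2, the main substrates of the receptors, averaged 9.76 and 9.81 in IN P10, 9.31 and 9.68 in IN P0, 9.70 and 9.91 in Pyr P12, and 9.58 and 9.81 in Pyr P0, and neither was called. At P0, limma and SAM called 0 of the 19 between the populations, with 4 higher and 6 lower at an unadjusted p under 0.05.

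Of 29 measured PI3K-AKT-mTOR genes, 1 fell with age in each population, against 7.04% of all probe sets called in interneurons and 9.16% in pyramidal cells, in either direction. It was Eif4ebp2, a repressor of translation that mTOR phosphorylates, which fell 3.05-fold in interneurons and 2.12-fold in pyramidal cells. At an unadjusted p under 0.05, levels of 7 of the 29 were above and 8 below those of IN P0 in IN P10. In Pyr P12, 10 were above and 11 below those of Pyr P0. Of all tested probe sets, 45.5% and 54.7% passed even the adjusted p alone in these comparisons. Pik3r1, the main regulatory subunit of PI3K, was 2.27-fold lower in IN P0 relative to Pyr P0, and between IN P10 and Pyr P12 limma and SAM called 0, with 5 higher and 10 lower at an unadjusted p under 0.05. The medians were -0.04 in interneurons and -0.01 in pyramidal cells. All 29 were above background on all 12 arrays.

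Of 15 FoxO factors and targets, 1 rose and 1 fell with age in interneurons, against 7.04% of all probe sets called. In pyramidal cells 1 fell, against 9.16%. The medians were -0.20 in interneurons and -0.01 in pyramidal cells. Ccng2, a cyclin that FoxO factors induce, fell 2.53-fold in interneurons and 2.51-fold in pyramidal cells. Bcl6, a transcriptional repressor, rose 2.12-fold in interneurons, with -0.53 in pyramidal cells, and was 2.005-fold lower in IN P0 relative to Pyr P0. Bcl2l11, which encodes the pro-apoptotic protein BIM, was higher in interneurons at both stages, 2.05-fold in IN P10 against Pyr P12 and 2.10-fold at P0, while Sesn1, a stress-induced inhibitor of mTORC1, was 2.12-fold lower in IN P10 relative to Pyr P12. Of 11 genes of mannose 6-phosphate sorting, the pathway of IGF2R, limma and SAM called 0 with age in either population (5 higher and 2 lower in interneurons and 5 higher and 1 lower in pyramidal cells at an unadjusted p under 0.05), and Sorl1, a sorting receptor, was 2.43-fold lower in IN P10 relative to Pyr P12.

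**Figure D5:**
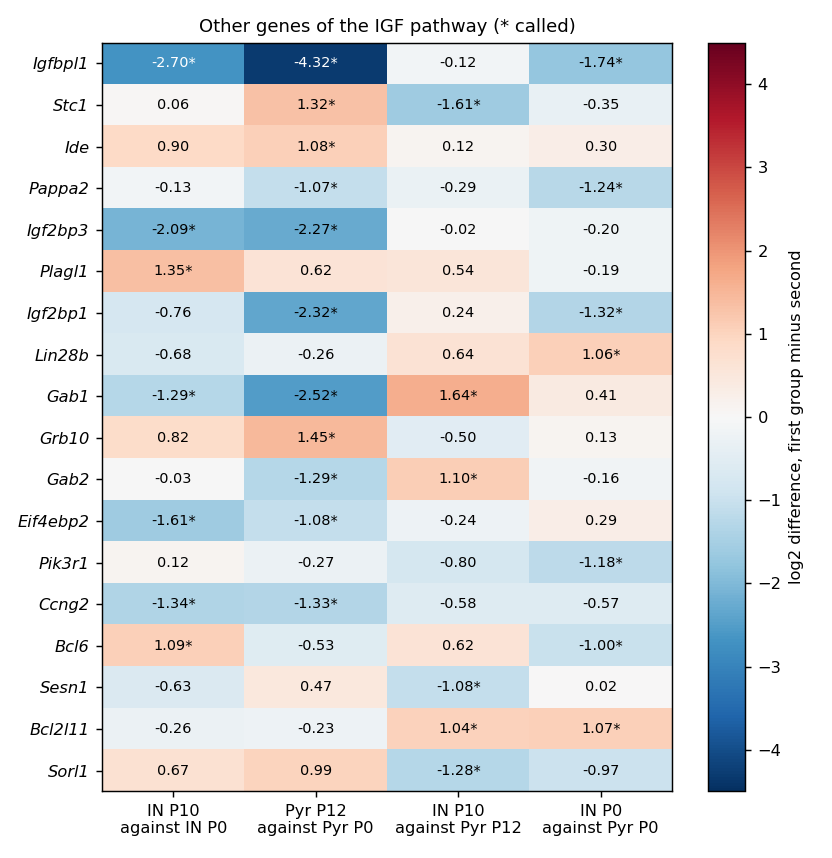
Log2 difference (color and number) of the 18 further pathway genes named in the text by rule (rows) with age in interneurons, with age in pyramidal cells, between IN P10 and Pyr P12 and between IN P0 and Pyr P0 (columns), with an asterisk on called differences. Igfbpl1 has -2.70 and -4.32 with age, Gab1 -1.29 and -2.52, and Grb10, Stc1 and Ide are called higher in Pyr P12 relative to Pyr P0.

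The genes whose 12 values ran most like each member were ranked by Pearson correlation among 14626 other genes above background, as a description of 12 arrays in 4 groups. For Igf1 they were Alk, a receptor tyrosine kinase (0.993), Sytl5 (0.992) and Arhgef6 (0.990). Alk averaged 10.16 in IN P10, 8.70 in IN P0, 7.87 in Pyr P12 and 7.79 in Pyr P0. For Igf1r they were Btg1, an antiproliferative gene (0.997), Scn3a, a sodium channel of the immature brain (0.996), and Kmt2c (0.995). Scn3a averaged 9.90 in IN P10, 10.90 in IN P0, 10.27 in Pyr P12 and 10.84 in Pyr P0, so that, as with Igf1r, the P0 groups were high and IN P10 was lowest.

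Insr ran with Slc38a2 (0.994), Zfp558 (0.994) and Mycn (0.994), Igf2r with Nat10 (0.983), Zmynd11 (0.980) and Ubtd2 (0.977), and Igfbp2 with Tsc22d1 (0.990), Rnf182 (0.987) and Cdc25a (0.986). For Igfbp3 the nearest were Fbxo21 (0.988), Erlin2 (0.986) and Ptpn9 (0.985), and for Igfbp5 Nr3c2, the mineralocorticoid receptor (0.990), Ggnbp2os (0.987) and Ptpn3 (0.987). Igfbp4 had its nearest at 0.965 (Mtus2, Insyn2b at 0.964 and Dlgap2 at 0.962), the lowest among the members that were above background on all arrays. Igf2, at background, ran with 4931431C16Rik (0.905), Vpreb2 (0.898) and Troap (0.879). Mtus2 averaged 10.48 in IN P10, 11.15 in IN P0, 10.78 in Pyr P12 and 9.82 in Pyr P0, in the same order of groups as Igfbp4.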

How the data were processed

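RNA of GFP+ cells sorted from mouse cortex was hybridized to Affymetrix Mouse Gene 1.0 ST arrays (4 groups of 3). The deposited log2 values had been background-corrected, quantile-normalized and summarized per probe set by the authors with RMA. The software version, annotation release and genome build are not given in the sources used here. Of 28192 probe sets, 22961 with a gene symbol were tested. The 1321 with several symbols were tested but not named. The 4 groups were fitted with limma 3.58.1 (R 4.3.3, 8 residual degrees of freedom, no block), and adjusted p-values are Benjamini-Hochberg values over all tested probe sets. The thresholds (0.05, 2-fold) are those of the methods, which name SAM; SAM, rewritten here with all 20 label permutations, was an alternative, as were the 2 groups alone, robust limma-trend, a replicate block, a filter on dim probe sets, other tested sets, median centring, other thresholds, the mean of probe sets and leaving out each array. An exact 2-sided permutation test of 3 arrays against 3 cannot go below p = 0.1, so the number of arrays limits the precision. The scripts were tested on simulated data with 200 changed probe sets.

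The members, marker lists and pathway lists were chosen with earlier results of these data known. Named genes are all members, up to 3 called genes of largest change per pathway list and comparison, the 3 genes most correlated with each member above background, and called or brightest markers. Sh2b2, Irs1, Irs2, P2ry12, Tmem119, Csf1r, Lyz2, C1qb, Fgfr3, Slc1a3, Ermn, Opalin and Aspa were named after their values were seen. The lists of mural cells, fibroblasts, ependymal and erythroid cells had at most 1 gene called in any comparison. A fold against a group with no array above background is a lower bound against that level, taken on each array. Promoters are from RefSeq (GRCm38.p6) and figures were drawn with matplotlib 3.10.9. Protein sequences were not used here.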

Additional observations from a re-analysis of the deposited data

Results flagged for a closer look

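For 10 of the genes named, the change with age differed between interneurons and pyramidal cells by a called test of the difference itself, computed as IN P10 minus IN P0 less Pyr P12 minus Pyr P0. Among the members, the difference between the changes was 2.14 for Igf1 (2.01 in interneurons and -0.13 in pyramidal cells), 1.23 for Igfbp3 (-0.40 and -1.63) and -3.00 for Igfbp4 (-1.03 and 1.97). Igf1 was higher on 3 of 3 IN P10 arrays than on any IN P0 array, and Igfbp4 ran in opposite directions without overlap in either population. Among the other pathway genes it was 1.62 for Igfbpl1, -1.27 for Stc1, 1.56 for Igf2bp1, 1.26 for Gab2, 1.23 for Gab1, 1.62 for Bcl6 and -1.10 for Sesn1. Igf2bp1 was above background on no Pyr P12 array, so its change in pyramidal cells (at least 4.05-fold lower in Pyr P12) and the 1.56 that rests on it are not exact sizes. Igfbpl1 and Gab1 fell in both populations, by more in pyramidal cells. The later age was P10 in interneurons and P12 in pyramidal cells, and the populations also differed in Cre line and region dissected. The later age, the Cre line, the region and the cell type cannot be told apart in these values.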

How the results depend on the processing

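No value of a member that was called changed sign under any alternative run. The counts depended on the fold threshold. With a fold over 1.5 the members called with age in interneurons were 6 in place of 3. Those whose change differed between populations were also 6 in place of 3. The share of all probe sets called at 1.5-fold, or with an array left out, was not taken, so those counts have no share beside them. With no fold threshold, 8 members passed for age in interneurons, against 45.5% of all tested probe sets. For the difference between the changes 8 passed, against 32.1%. For age in pyramidal cells 8 passed in place of 5, against 54.7%, and between IN P10 and Pyr P12 7 in place of 3, against 46.6%. Leaving out each array gave 2 to 4 members for age in interneurons, 4 to 5 for age in pyramidal cells, 3 each time between IN P10 and Pyr P12, 1 to 3 at P0 and 3 to 4 for the difference between the changes. Without IN P0 replicate C, Igf1 (0.98) was no longer called at P0, and 1 member remained. Igfbp4 with age in interneurons lost its call without IN P10 replicate C (-0.92), and Insr with age in pyramidal cells lost it without Pyr P0 replicate A (-0.98) and with the mean of both probe sets (-0.89). Igfbp2 and the difference between the changes of Igfbp5 with age, just under 2-fold, passed that threshold when some arrays were left out. SAM made the same calls of members in the 4 comparisons between groups, and centring moved differences by at most 0.03. Deviations of same-lettered replicates from their group means correlated at -0.18 to 0.19, with 6 of 18 correlations over 0.1 and 7 below 0. With the letter as a replicate block the counts were 3, 5, 3, 2 and 3 as without it. Signals at the background level, as for Igf2 and Igfbp6, give only an upper bound.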
